A study of Mus musculus with 18 samples.

Results

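The Hox genes were read here as 38 members of 22254 protein-coding genes in the GENCODE vM1 models of the mouse genome build NCBIM37, taken from a list of names (Hoxa2 to Hoxd13). All 38 names were found, in 4 blocks. Each block was taken from the outer end of its first listed gene to the outer end of its last, and 50 kb on either side served as flank. HoxA held 10 listed genes on chromosome 6 (chr6:52112350-52210874, 98.5 kb), HoxB 10 on chromosome 11 (chr11:96055630-96229570, 174 kb), HoxC 9 on chromosome 15 (chr15:102751534-102867274, 116 kb) and HoxD 9 on chromosome 2 (chr2:74506367-74603200, 96.8 kb). Together the 4 blocks contained 11784 CpGs, beside 20364700 on all autosomes of that build, a CpG being a cytosine followed by guanine, where nearly all mammalian DNA methylation sits.

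Hox genes encode homeodomain transcription factors that assign position along the head to tail axis of the embryo. Their order along each cluster follows the order of their expression domains, with the low-numbered anterior genes active first and towards the head and the high-numbered posterior genes later and towards the tail. In embryonic stem cells the clusters are largely silent, lie under Polycomb repression and are rich in CpG islands, which are usually free of DNA methylation.

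The study followed DNA methylation by whole-genome bisulfite sequencing in mouse embryonic stem cells grown in serum, with and without acute deletion of Dnmt1, the enzyme that copies methylation onto new DNA strands. There were 18 libraries, 9 of control cells (genotype wild type in the labels) and 9 of Dnmt1 KO cells, from days 1, 3, 6, 9 and 11, with 2 replicates of each genotype at every day except day 6, which had 1. By the study's methods, Dnmt1 loxP/loxP cells were deleted by a tamoxifen-induced Cre. The labels gave E14 as the background strain of all libraries, while the methods gave C57BL/6 for the loxP cells, and whether the control cells were untreated loxP cells is not stated in the labels, so genotype and cell line cannot be told apart. The measurements hold no RNA, so the cell type rests on the labels alone.

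Each library held between 7190722 and 11158414 CpG calls, a call being 1 read over 1 cytosine, and each Hox block held between 588 and 1823 calls per library. Levels below are therefore the percent of methylated calls summed over many CpGs. Exons 4 and 5 of Dnmt1, with 20 CpGs (chr9:20744920-20746027), had 69 calls in the 9 control libraries, between 2 and 18 in each, and 2 calls in the Dnmt1 KO libraries, both from day 1. The other 8 Dnmt1 KO libraries had 0 calls there, which for days 3 to 11 allows up to 5.91% of the 50.7 calls expected from the control libraries. CpGs of the mitochondrial genome, a background for incomplete conversion, were methylated in 0.228% to 0.467% of calls, and the genotypes differed there by -0.023 points (exact permutation test, adjusted p = 0.601).

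All 4 clusters were poorly methylated in control, and most of that level was absent in Dnmt1 KO from day 6 on. HoxA stood at a median of 22.05% over the 9 control libraries (lowest 19.0%, highest 26.4%), and at 22.9% and 22.7% in Dnmt1 KO at day 1, 10.5% and 10.5% at day 3, 5.35% at day 6, 6.50% and 5.45% at day 9, and 6.60% and 4.64% at day 11. HoxC had a control median of 24.8% (16.1% to 28.8%) and went through 24.5% and 21.5%, 8.38% and 9.99%, 4.88%, 7.58% and 6.63%, and 4.37% and 4.06% at the same days. In both clusters the day 1 Dnmt1 KO libraries lay within the range of the control libraries, and every later Dnmt1 KO library lay below all 9 of them. HoxD had a control median of 26.4% (19.8% to 37.9%) and Dnmt1 KO levels of 28.9% and 26.9%, 9.71% and 11.11%, 7.60%, 8.19% and 5.58%, and 8.40% and 6.62%. HoxB was the most methylated, with a control median of 32.7% (30.9% to 39.2%) and Dnmt1 KO levels of 29.5% and 31.5%, 14.6% and 12.8%, 11.17%, 11.24% and 10.3%, and 10.4% and 9.52%. These 2 clusters also separated from control in every Dnmt1 KO library from day 3 on. Autosomes as a whole stood at 71.4% to 79.0% in control and 24.2% to 25.6% in Dnmt1 KO at days 6 to 11. A lower level in bulk DNA can come from fewer cells with methylated copies or from fewer methylated CpGs per cell, and these cannot be told apart.

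**Figure D1:**
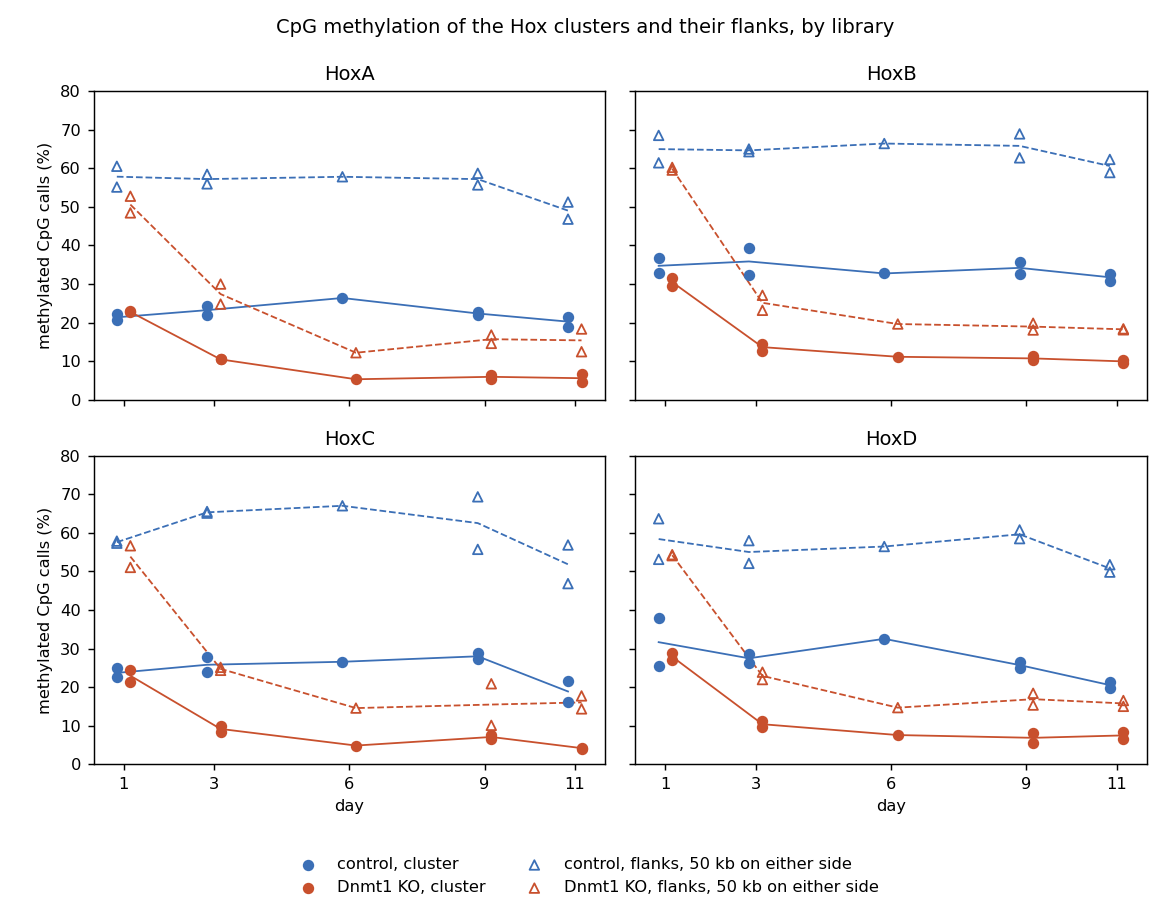
Percent of methylated CpG calls (y axis) by day (x axis) in each Hox cluster and in its 50 kb flanks, with 1 point per library for control (blue) and Dnmt1 KO (red) and lines through the means of each day. In all 4 panels the Dnmt1 KO points of the cluster are near control at day 1 and below it from day 3 on, and the flanks are at 46.8% or higher in every control library.

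The loss was larger than the spread between replicates in each cluster. Averaged over the 5 days, Dnmt1 KO minus control was -12.7 points in HoxA (adjusted p = 0.0075, 7 of 9 Dnmt1 KO libraries below all control libraries of their day), -18.6 in HoxB (adjusted p = 0.0027, 9 of 9), -14.9 in HoxC (adjusted p = 0.0041, 8 of 9) and -15.5 in HoxD (adjusted p = 0.0041, 7 of 9), by a two-sided exact permutation test of genotype within days, adjusted by Benjamini-Hochberg over 21 tests. The smallest p of this test is 0.00077. At day 1 alone the differences were 1.40, -4.23, -0.73 and -3.76 points, and a test of 2 against 2 libraries cannot go below 0.33, so none was made. Between days 3 and 11 the differences lay between -12.8 and -21.1 points in HoxA, -21.6 and -23.4 in HoxB, -14.7 and -21.7 in HoxC, and -13.0 and -24.9 in HoxD.

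The flanks were more methylated and lost more points. In control they averaged 55.6% ± 4.23 around HoxA, 64.3% ± 3.32 around HoxB, 60.1% ± 7.12 around HoxC and 56.0% ± 4.63 around HoxD (SD, n = 9), and each pair of flanks touched 1 other protein-coding gene. Dnmt1 KO minus control was -31.5, -36.1, -35.9 and -31.1 points there (exact permutation test, adjusted p = 0.0027 for HoxA, HoxB and HoxC and 0.0041 for HoxD). Cluster minus flank was -33.2, -30.3, -35.8 and -28.9 points in control, and this gap narrowed by 18.8, 17.4, 21.0 and 15.6 points in Dnmt1 KO (exact permutation test, adjusted p = 0.0027, 0.0041, 0.0027 and 0.0041). A gap in points narrows when a lower and a higher level fall by a like fraction, so this test does not show that the clusters and their flanks became more alike. At days 6 to 11 the flanks kept 26.7%, 29.3%, 25.1% and 28.5% of their pooled control level, near the fractions kept by the clusters themselves, and the fractions were not tested against each other. The clusters were the lower of the pair in all 18 libraries.

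Few stretches of the genome were as poorly methylated as the Hox clusters. Of 23848 other autosomal segments of 100 kb, 2 had a lower pooled control level than HoxA, 8 a lower level than HoxB, 3 than HoxC and 4 than HoxD. Of the 66 segments with at least 20 CpGs per kb, a density that all 4 clusters exceeded (29.9, 20.9, 21.5 and 28.05 CpGs per kb), 0 were lower, and their median was 51.6%. In Dnmt1 KO at days 6 to 11 the clusters stood at 5.68%, 10.6%, 5.34% and 7.28%, which was 25.7%, 31.1%, 22.2% and 27.3% of their own control level, against a median of 30.03% over all segments. The fraction kept was thus near that of the genome in HoxB and below its median in the other 3 clusters. However, the fraction varied with control level. Windows of 50 CpGs outside the clusters kept a median of 23.9% at control levels of 10% to 50%, 27.8% at 50% to 80% and 32.3% at 80% or more. Windows inside the clusters kept 24.2%, 22.3% and 36.8% in these classes, the last on 4 windows. Below 10% in control, a class with 74 of the 223 Hox windows, the medians kept were 42.4% inside and 0% outside. Control medians in that class were 3.15% inside and 1.37% outside, near the floor, so its fractions are uncertain. The clusters thus did not keep less at every like level, which was not tested.

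CpG density alone was compared next, because CpGs in dense surroundings are usually unmethylated. By the number of CpGs within 250 bp, a CpG was sparse (under 10), intermediate, or dense (25 and above), and 52.0% of the CpGs of HoxA, 31.0% of HoxB, 37.8% of HoxC and 49.04% of HoxD were dense. Sparse CpGs inside the clusters had a control median of 61.3% (55.0% to 63.2%), against 80.4% (76.4% to 84.2%) on the rest of the autosomes. The intermediate class differed most, with a control median of 28.1% (22.8% to 31.2%) inside and 73.9% (69.6% to 76.4%) outside. Dense CpGs stood at 4.76% (2.57% to 5.84%) inside and 7.83% (6.62% to 9.0%) outside. In each class the control libraries inside the clusters lay below all control libraries outside them. At days 6 to 11 of Dnmt1 KO the medians over 5 libraries were 14.7%, 6.78% and 1.98% inside for sparse, intermediate and dense CpGs, and 24.4%, 28.5% and 2.89% outside.

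The same comparison was made as a ratio, with the level expected in each library from its own CpGs of the same density elsewhere on the autosomes. Over all 4 clusters the observed level was 0.518 to 0.594 of the expected level in the 9 control libraries, 0.538 and 0.566 in Dnmt1 KO at day 1, 0.451 and 0.475 at day 3, and 0.364 to 0.487 in the 5 libraries of days 6 to 11. All 7 Dnmt1 KO libraries from day 3 on were below all control libraries. On the log2 scale the ratio averaged -0.92 in control for HoxA, -0.71 for HoxB, -1.07 for HoxC and -0.84 for HoxD, and Dnmt1 KO minus control was -0.44, -0.17, -0.46 and -0.32 (exact permutation test, adjusted p = 0.0041, 0.0091, 0.0086 and 0.0153). The ratio thus fell on average in each cluster, but not at every day. The CpGs of like density elsewhere had higher control levels, and the fraction kept varied with control level, as given above. The ratio does not match for control level, and the part of control level in its fall was not tested. In HoxC the difference at day 1 was 0.114. In HoxB the difference at day 6 was 0.0042, and 7 of 9 Dnmt1 KO libraries were below and 2 above all control libraries of their day. Libraries above all control libraries of their day also numbered 2 in HoxC and 1 in HoxD. Pooled dense CpGs alone went the other way, from 4.52% in control to 2.13% at days 6 to 11 inside the clusters and from 7.74% to 2.997% outside, so that a larger share was kept inside, which was not tested. For HoxD the adjusted p was 0.056 without control day 9 replicate 2, at a difference of -0.32.

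**Figure D2:**
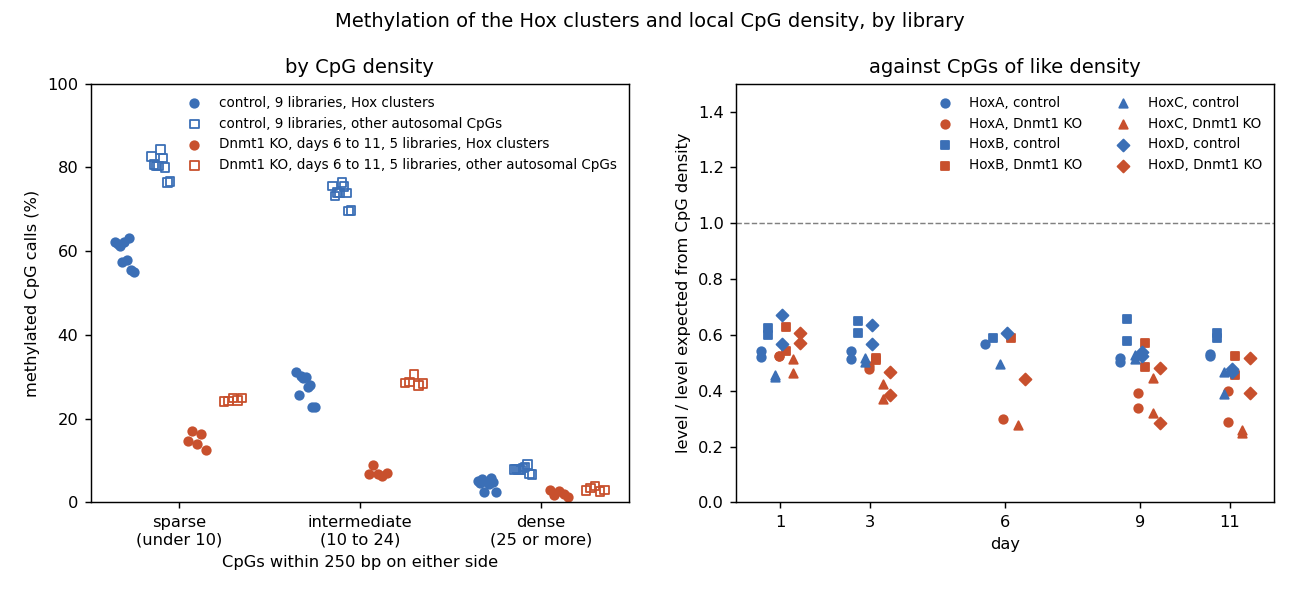
Left, percent of methylated calls (y axis) of sparse, intermediate and dense CpGs (x axis) inside the Hox clusters (filled) and on the rest of the autosomes (open), with 1 point per library for control (blue) and Dnmt1 KO at days 6 to 11 (red). Right, level of each cluster divided by the level expected from CpG density (y axis) by day (x axis), with 1 point per library and a dashed line at a ratio of 1. The clusters lie below the other CpGs in all classes of control, most of all in the intermediate class, and all ratios are below 1.

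Coverage moved with genotype in part of the clusters. HoxA held 134 ± 24.2 of every 1000000 autosomal calls in control (SD, n = 9), and Dnmt1 KO minus control was -25.9 per 1000000 (exact permutation test, adjusted p = 0.0086). HoxB held 164 ± 15.3, with a difference of -17.5 (adjusted p = 0.0189, exact permutation test), and without control day 9 replicate 2 that difference was -14.6 with an adjusted p of 0.069. In HoxC and HoxD the differences were -5.69 and -1.64 (exact permutation test, adjusted p = 0.400 and 0.771). Dense CpGs outside the clusters also held a lower share in Dnmt1 KO. They had 3809485 of 83857369 pooled autosomal calls in control and 3356112 of 81349554 in Dnmt1 KO. A lower share was thus not particular to HoxA and HoxB, and the part of CpG density in it was not tested. The part of coverage in the methylation levels was not tested either.

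Methylation inside the clusters was higher away from the gene starts. CpGs within 500 bp of the nearest start of a listed gene stood at 8.38% in pooled control, those at 500 to 1000 bp at 15.1%, those at 1 to 2 kb at 24.9%, those at 2 to 5 kb at 27.9%, and those farther away at 40.7%. The control libraries ran from 6.84% to 11.3% in the nearest class and from 33.8% to 45.4% in the farthest, so the outer classes did not overlap. CpG density fell along the same axis, with medians of 33, 26, 20, 18 and 17 CpGs within 250 bp, and its part in the gradient was not tested. In Dnmt1 KO at days 6 to 11 the classes stood at 2.96%, 5.04%, 7.17%, 6.90% and 10.8%, so the farthest class was still the highest. By kind of sequence, pooled promoters (the 1 kb upstream of a listed gene) went from 17.9% to 5.67%, gene bodies from 21.5% to 5.82% and the sequence between them from 42.1% to 11.5%. The sequence between them had 11908 control calls. A large part came from the interval between Hoxb13 and Hoxb9, which held 4649 control calls at 52.6%. Most of that interval also lies more than 5 kb from a listed start, and its part in the gradient was not separated. Exons of the listed genes went from 14.3% to 4.07% and introns from 29.9% to 7.74%.

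In consecutive windows of 50 CpGs, 232 of which made up the clusters, 36 stood at 50% or more in pooled control and 82 below 10%. HoxA had 6 of the methylated windows, HoxB 18, HoxC 4 and HoxD 8, and 19 touched a listed gene while 17 did not. These 36 were chosen for a high control level, so a lower level elsewhere follows in part from the choice, and their median in Dnmt1 KO at days 6 to 11 was 14.8% (3.88% to 36.4%). Of the Hox windows with at least 30 control calls and 20 Dnmt1 KO calls, 33.2% were below 10% and 1.79% at 80% or more, against 3.82% and 57.8% of the other windows. The test could be run in 23 Hox windows, those where every library had 10 or more calls, and 22 of them were called lower in Dnmt1 KO at days 3 to 11 (adjusted p under 0.05, quasi-binomial model with limma), where 99.9% of all windows tested were called. With no minimum of calls, 125 of the 232 were called, beside 92.6% of all windows. The window not called lay over the start of Hoxb6 (chr11:96152759-96154793), a central gene, and was at 8.66% in control and 4.81% in Dnmt1 KO at days 6 to 11.

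The most methylated part of HoxB was the long interval between Hoxb13 and Hoxb9, where no other listed gene lies. This interval of 74.0 kb held 1098 CpGs and 12 of the 18 methylated windows of HoxB. Its control median was 53.2% (47.7% to 58.4%), and Dnmt1 KO was at 51.2% and 52.2% at day 1, 23.1% and 23.98% at day 3, and between 15.2% and 17.5% at days 6 to 11. From Hoxb9 to Hoxb1, 96.8 kb with 2464 CpGs, the control median was 23.1% (19.1% to 30.6%) and Dnmt1 KO at days 6 to 11 was between 6.05% and 7.90%. The compact section, chosen after its values were seen, was thus near the level of HoxA and HoxC, and Dnmt1 KO minus control in it was -13.7 points (exact permutation test, adjusted p = 0.0027).

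Runs of unmethylated windows marked a few genes. Only the longest run below 10% of each cluster is given. In HoxB it lay over Hoxb8 and Hoxb7 (5 windows, chr11:96143427-96148308, 2.49% in pooled control) and in HoxD over Hoxd11 (5 windows, chr2:74518007-74521767, 1.99%). In HoxC it lay over Hoxc11 (3 windows, chr15:102784592-102787016, 2.98%) and in HoxA over Hoxa4 (3 windows, chr6:52140551-52141973, 3.52%). In this order the runs were at 1.67%, 0.382%, 0.676% and 2.15% in Dnmt1 KO at days 6 to 11.

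**Figure D3:**
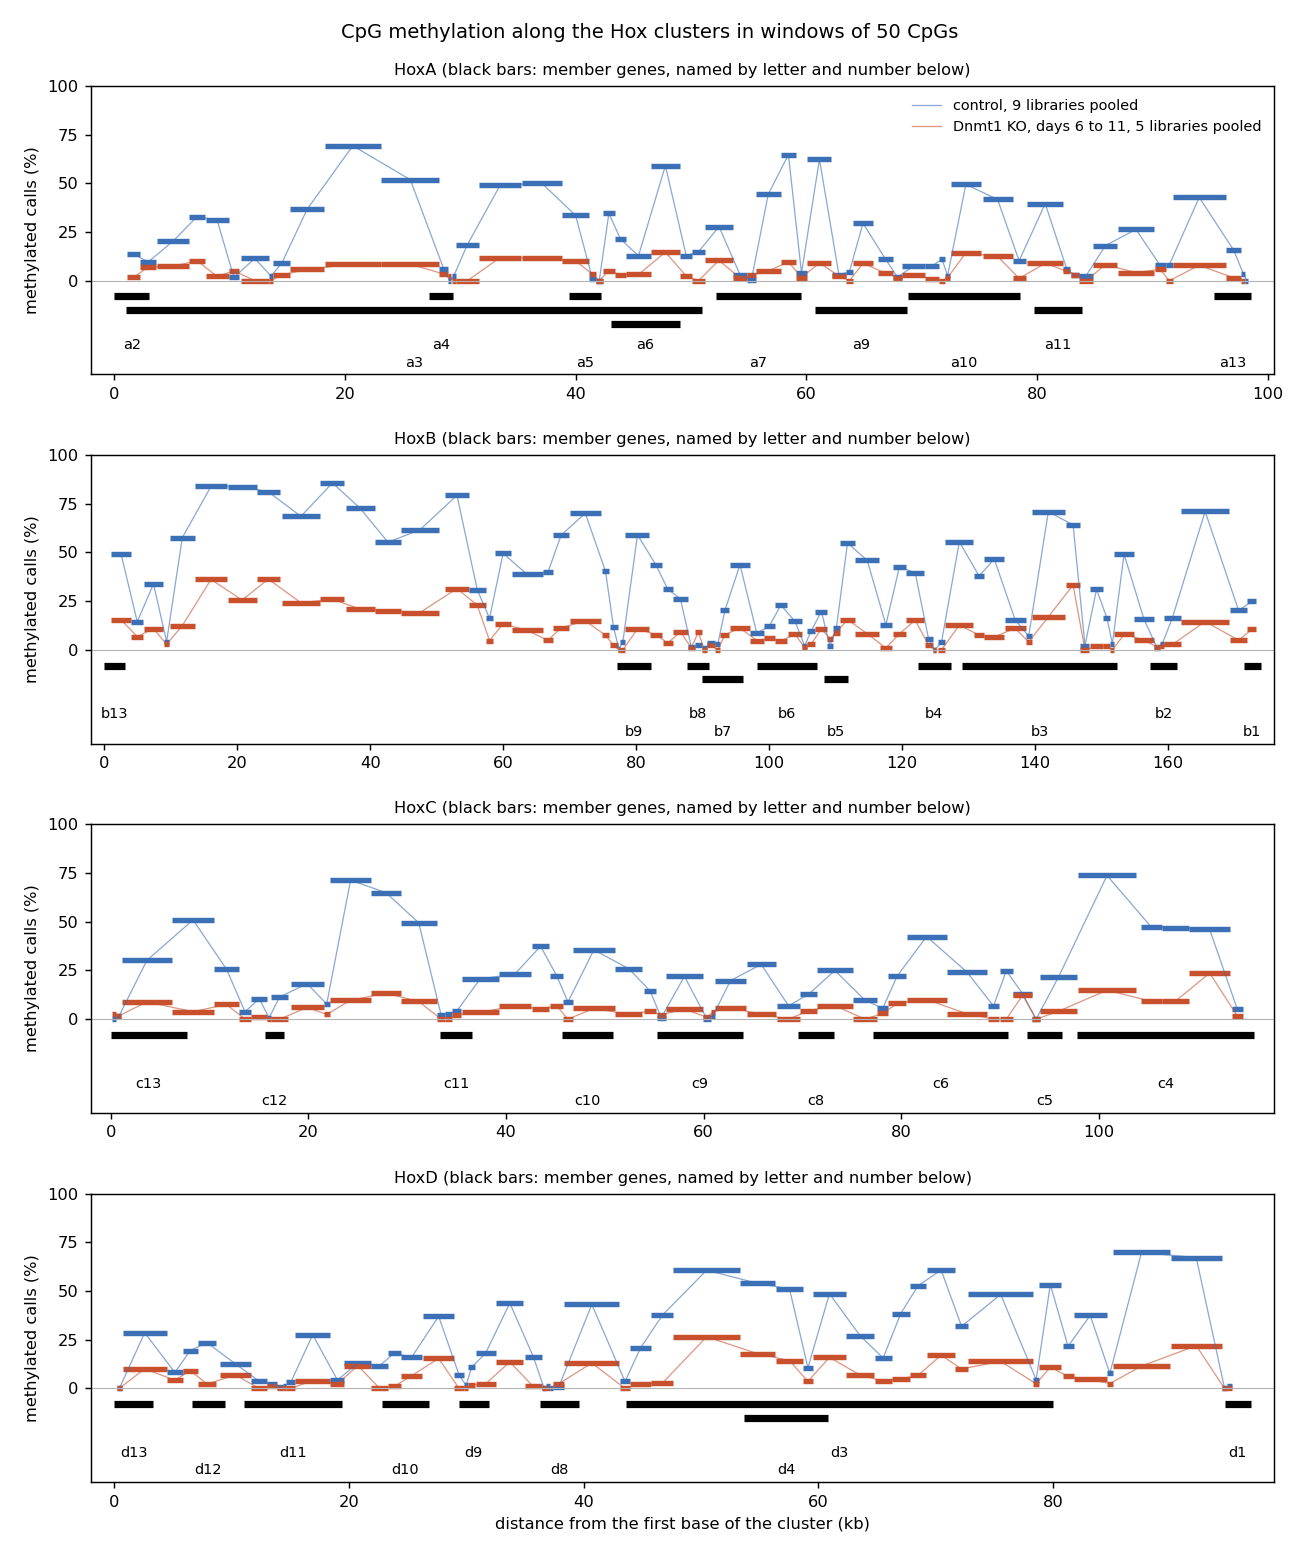
Percent of methylated calls (y axis) in consecutive windows of 50 CpGs against the distance in kb from the start of each cluster (x axis), for pooled control and pooled Dnmt1 KO libraries of days 6 to 11, with each window drawn as a bar of its length and the listed genes as black bars below. Control rises to peaks between stretches near 0, HoxB has a broad raised stretch between Hoxb13 and Hoxb9, and Dnmt1 KO is at 36.4% or below in all 36 windows that stand at 50% or more in control.

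To show the sequence behind these contrasts, 3 stretches of 300 bases are given from the plus strand of NCBIM37, 5′ to 3′, with every CpG in capitals. The first, upstream of the posterior gene Hoxd9, is a CpG-rich promoter stretch with partial methylation (chr2:74534754-74535053, 15 CpGs, ending 684 bases before the start, in an intron of the gene model Gm14396). The second, upstream of the posterior gene Hoxc13, has nearly as many CpGs and almost no methylation (chr15:102750653-102750952, 12 CpGs, ending 582 bases before the start). The third lies in the most methylated window of the clusters among those with at least 100 control calls, between Hoxb13 and Hoxb9 (chr11:96089160-96089459, 9 CpGs).
Hoxd9 upstream: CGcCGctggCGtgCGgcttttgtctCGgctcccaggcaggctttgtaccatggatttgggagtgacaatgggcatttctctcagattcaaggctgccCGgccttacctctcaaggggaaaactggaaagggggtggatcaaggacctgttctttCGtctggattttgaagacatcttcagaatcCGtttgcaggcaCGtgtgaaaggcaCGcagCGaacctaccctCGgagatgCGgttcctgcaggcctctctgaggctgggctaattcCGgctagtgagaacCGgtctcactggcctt
Hoxc13 upstream: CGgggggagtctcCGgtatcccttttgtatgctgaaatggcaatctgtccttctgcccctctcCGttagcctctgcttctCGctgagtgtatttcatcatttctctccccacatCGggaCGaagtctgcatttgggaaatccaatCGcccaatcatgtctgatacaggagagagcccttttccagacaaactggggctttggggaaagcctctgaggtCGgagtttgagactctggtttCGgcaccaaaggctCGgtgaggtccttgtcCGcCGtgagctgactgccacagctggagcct
HoxB interval: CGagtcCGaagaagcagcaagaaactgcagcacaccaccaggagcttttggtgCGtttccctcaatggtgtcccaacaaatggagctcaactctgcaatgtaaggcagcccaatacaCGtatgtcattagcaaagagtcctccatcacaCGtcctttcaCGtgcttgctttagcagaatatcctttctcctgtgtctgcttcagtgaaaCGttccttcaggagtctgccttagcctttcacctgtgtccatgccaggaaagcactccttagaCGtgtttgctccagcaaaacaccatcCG
The Hoxd9 and Hoxc13 stretches are those of their promoters with the most control calls. The HoxB stretch is the one of its window with the most CpGs. In pooled control, 37 of 132 calls were methylated in the Hoxd9 stretch (28.03%, 95% Clopper-Pearson interval 20.6% to 36.5%), 1 of 85 in the Hoxc13 stretch (1.18%, 0.03% to 6.38%) and 30 of 38 in the HoxB stretch (78.9%, 62.7% to 90.4%). In Dnmt1 KO at days 3 to 11 the counts were 8 of 38, 0 of 22 and 8 of 36. The HoxB stretch was at 22.2% and lay far below its control interval. The Hoxd9 stretch was at 21.1%, with an interval of 9.55% to 37.3% that includes its control level. The Hoxd9 promoter and the HoxB window were chosen for a high control level, so a lower level in Dnmt1 KO follows in part from the choice. The intervals cover counting error only, since a read can give several calls and amplification several copies of a read.

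Gene bodies (from start to end of a gene's models) were fitted over all protein-coding genes, and 27 of the 38 Hox genes had the required 10 calls in every library. In Dnmt1 KO at days 3 to 11, 21 of these 27 were called lower and 0 higher (quasi-binomial model with limma, adjusted p under 0.05), beside 99.1% of all 16279 genes tested called lower and 0.00614% higher. Without a minimum of calls, 27 of 38 were called, beside 90.7% of 21972 genes. Between the first and last coding base, 6 had enough calls and 4 were called, beside 99.6% of 14506 genes. By cluster, 7 of 8 were called in HoxA, 4 of 7 in HoxB, 4 of 6 in HoxC and 6 of 6 in HoxD. Groups of paralogues gave 6 of 8 anterior genes (groups 1 to 4), 7 of 9 central genes (5 to 8) and 8 of 10 posterior genes (9 to 13). Hox gene bodies were of low level in control, with 8 of 38 below 10%, 15 from 10% to 20%, 9 from 20% to 30% and 6 at 30% or more. The share of genes called depended on that level over the whole genome. Of all genes tested, 32.2% were called when control was below 10% (Hox 1 of 5), 82.5% at 10% to 20% (Hox 9 of 11), 96.5% at 20% to 30% (Hox 6 of 6) and 99.4% at 30% to 50% (Hox 5 of 5). Read against genes of the same control level, the share of Hox genes called was near that of other genes.

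Pooled over the clusters, anterior bodies were at 29.4% in control and 7.62% in Dnmt1 KO at days 6 to 11, central bodies at 16.3% and 4.99%, and posterior bodies at 15.1% and 4.02%. Anterior bodies ran from 25.4% to 33.9% over the control libraries and posterior bodies from 12.8% to 17.2%, without overlap. The gene models of Hoxa3 and Hoxd3 are long, and Hoxa3 (the union of a pair of models with that name) covers Hoxa4, Hoxa5, Hoxa6 and most of Hoxa2, while Hoxd3 covers Hoxd4, so these values share calls with their neighbours. The anterior pool also rests on a few long models, with 4981 control calls in Hoxa3, 2806 in Hoxd3, 1602 in Hoxb3 and 1121 in Hoxc4. Single genes did not follow the order of the pools, since the anterior genes Hoxb2 (5.32%), Hoxb4 (11.3%) and Hoxa4 (12.9%) were below the posterior pool and the posterior gene Hoxb13 (42.0%) was above the anterior one.

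Hoxc4, an anterior gene of the neck and upper trunk, had the highest pooled body level in control, 43.0%, with a median of 40.0% over the control libraries (33.8% to 57.5%). The Dnmt1 KO libraries of day 1 were at 54.1% and 25.6%, and those of days 3 to 11 at a median of 11.11% (6.06% to 30.8%) (n = 7). The difference over these days was -30.7 points (adjusted p = 1.3e-07). Hoxd3, which takes part in patterning the upper neck vertebrae, had a control median of 40.5% (29.1% to 52.5%) and a late Dnmt1 KO median of 10.97% (7.32% to 16.2%), a difference of -27.1 points (adjusted p = 5.2e-10). Hoxb3, a hindbrain patterning gene, had medians of 31.8% (21.7% to 41.0%) and 6.25% (4.27% to 11.6%), a difference of -22.6 points (adjusted p = 6.2e-08). Hoxa3, needed for thymus and parathyroid development, was covered best, with 330 to 737 calls per library. Its control libraries ran from 20.2% to 30.1% (median 26.6%), its late Dnmt1 KO libraries from 3.94% to 10.7% (median 6.36%), and the difference was -18.3 points (adjusted p = 4.4e-11). For all 4 genes the late Dnmt1 KO libraries lay below every control library. The share of all genes that separate in this way is not given here, and 99.1% of all genes tested were called lower.

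At the other end stood Hoxb8, a central gene whose loss disturbs grooming behaviour in mice. Its control libraries ran from 0% to 5.13% (median 1.92%) and its late Dnmt1 KO libraries from 0% to 10.5% (median 0%), with a difference of 0.45 points (adjusted p = 0.742). It was the only member whose pooled level at days 6 to 11 (1.46%) was not below control (1.45%), and it overlaps the start of Hoxb7. Hoxc11 and Hoxb2, a posterior hindlimb gene and an anterior hindbrain gene, were also low in control, at 4.24% and 5.32% pooled, with differences of -3.27 and -3.91 points (adjusted p = 0.132 and 0.0959). Hoxd11, a posterior gene of the limb and kidney, was the lowest body called, from a control median of 5.88% (3.65% to 15%) to a late Dnmt1 KO median of 0.667% (0% to 3.17%), a difference of -5.35 points (adjusted p = 0.0070). The groups did not overlap there, again without a share over all genes to set beside it.

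Pooled levels of single bodies are given over all control libraries and over Dnmt1 KO at days 6 to 11, while each difference was fitted within days over days 3 to 11, so the pooled levels do not subtract to it. In HoxA, Hoxa6, a central gene, was at 31.8% pooled in control and 7.14% in Dnmt1 KO at days 6 to 11, and Hoxa10, a posterior gene of the uterus and the lumbar region, at 22.8% and 5.35%. Their differences over days 3 to 11 were -23.9 and -15.2 points (adjusted p = 5.7e-05 and 2.0e-05). Hoxa11, a gene of the forearm and the uterus, was at 10.2% and 5.66% and was not called (-5.77 points, adjusted p = 0.146). The neighbours Hoxa10 and Hoxa11 thus had different control levels, and the difference between their losses was not tested.

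In HoxB, Hoxb9, a posterior gene of the trunk, was at 22.9% pooled in control and 6.47% in Dnmt1 KO at days 6 to 11. Its control libraries ran from 12.7% to 59.1% (median 21.5%) and its Dnmt1 KO libraries of days 3 to 11 from 0% to 22.2% (median 11.11%), with overlap, and the difference fitted over these days was -21.0 points (adjusted p = 0.0013). Hoxb13, the gene at the posterior end of the cluster, had the highest level of the HoxB bodies, at 42.0% in control and 14.1% at days 6 to 11. It had too few calls for the filter, and without a minimum its difference was -29.9 points (adjusted p = 0.00018). In HoxC, Hoxc6, a central gene of the chest region, went from 21.0% to 4.84% (-14.7 points, adjusted p = 1.3e-05). Hoxc10, a posterior gene of the hindlimb level, was at 23.7% and 2.50%, and its test without a minimum gave -17.6 points (adjusted p = 0.0024). Hoxc12 had 0 methylated of 182 calls at days 6 to 11, which allows a level of up to 1.65%, from 5.92% in control, and was called only without a minimum (-5.76 points, adjusted p = 0.0429). In HoxD, the anterior gene Hoxd4 went from 39.0% to 14.9% (-21.4 points, adjusted p = 0.00044). The posterior limb genes Hoxd9, with 8.80% and 1.58%, and Hoxd13, with 9.90% and 1.17%, were also under the filter, and without a minimum they differed by -5.60 and -6.50 points (adjusted p = 0.0705 and 0.0291).

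The calls of 6 bodies turned on single libraries. Hoxa5, needed for lung development, went from 12.7% to 5.31% (-7.14 points, adjusted p = 0.0351), and its adjusted p was 0.0502 to 0.0970 without control day 3 replicate 1, control day 9 replicate 1, control day 11 replicate 1, Dnmt1 KO day 9 replicate 1 or Dnmt1 KO day 11 replicate 2. The posterior limb gene Hoxd12 was at 27.4% in control, 25% of 88 calls in Dnmt1 KO at day 3 and 6.71% at days 6 to 11. Its control libraries ran from 10.3% to 37.1% (median 27.6%) and its Dnmt1 KO libraries of days 3 to 11 from 1.64% to 27.8% (median 20%), with overlap. The difference over days 3 to 11 was -12.4 points (adjusted p = 0.0404), with 0.0656 to 0.226 without control day 9 replicate 2, control day 11 replicate 1, Dnmt1 KO day 9 replicate 2 or either Dnmt1 KO library of day 11. Without control day 11 replicate 1 its difference was -7.94 points. Hoxd8, a central gene, went from 11.6% to 4.40% (-8.45 points, adjusted p = 0.0392), with 0.0515 to 0.158 without either control or Dnmt1 KO library of day 3, either library of day 6, or Dnmt1 KO day 11 replicate 1. These 3 were called with all libraries and lost the call.

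The other 3 gained a call. Hoxb4, known for its effect on blood stem cells, was at 11.3% and 4.06% (-7.17 points, adjusted p = 0.0531), and was called at 0.0129 to 0.0431 without control day 3 replicate 1, control day 11 replicate 1, Dnmt1 KO day 3 replicate 2 or Dnmt1 KO day 9 replicate 2. Hoxc5, a central gene, was at 6.73% and 1.85% (-5.79 points, adjusted p = 0.0549), and was called at 0.0268 to 0.0394 without control day 3 replicate 1, control day 9 replicate 2, control day 11 replicate 2 or either library of day 6. Hoxb2, above, was called at 0.0477 without control day 9 replicate 2. In all of these fits the 6 bodies were lower in Dnmt1 KO.

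Over all 38 members, a larger share of dense CpGs in the body went with a lower control level (Spearman's rho = -0.56, Pearson's r = -0.63, n = 38 genes of the same libraries), and members that were higher in control were higher in Dnmt1 KO at days 6 to 11 (rho = 0.80). Neighbouring members share sequence and all share libraries, and these correlations are descriptions.

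**Figure D4:**
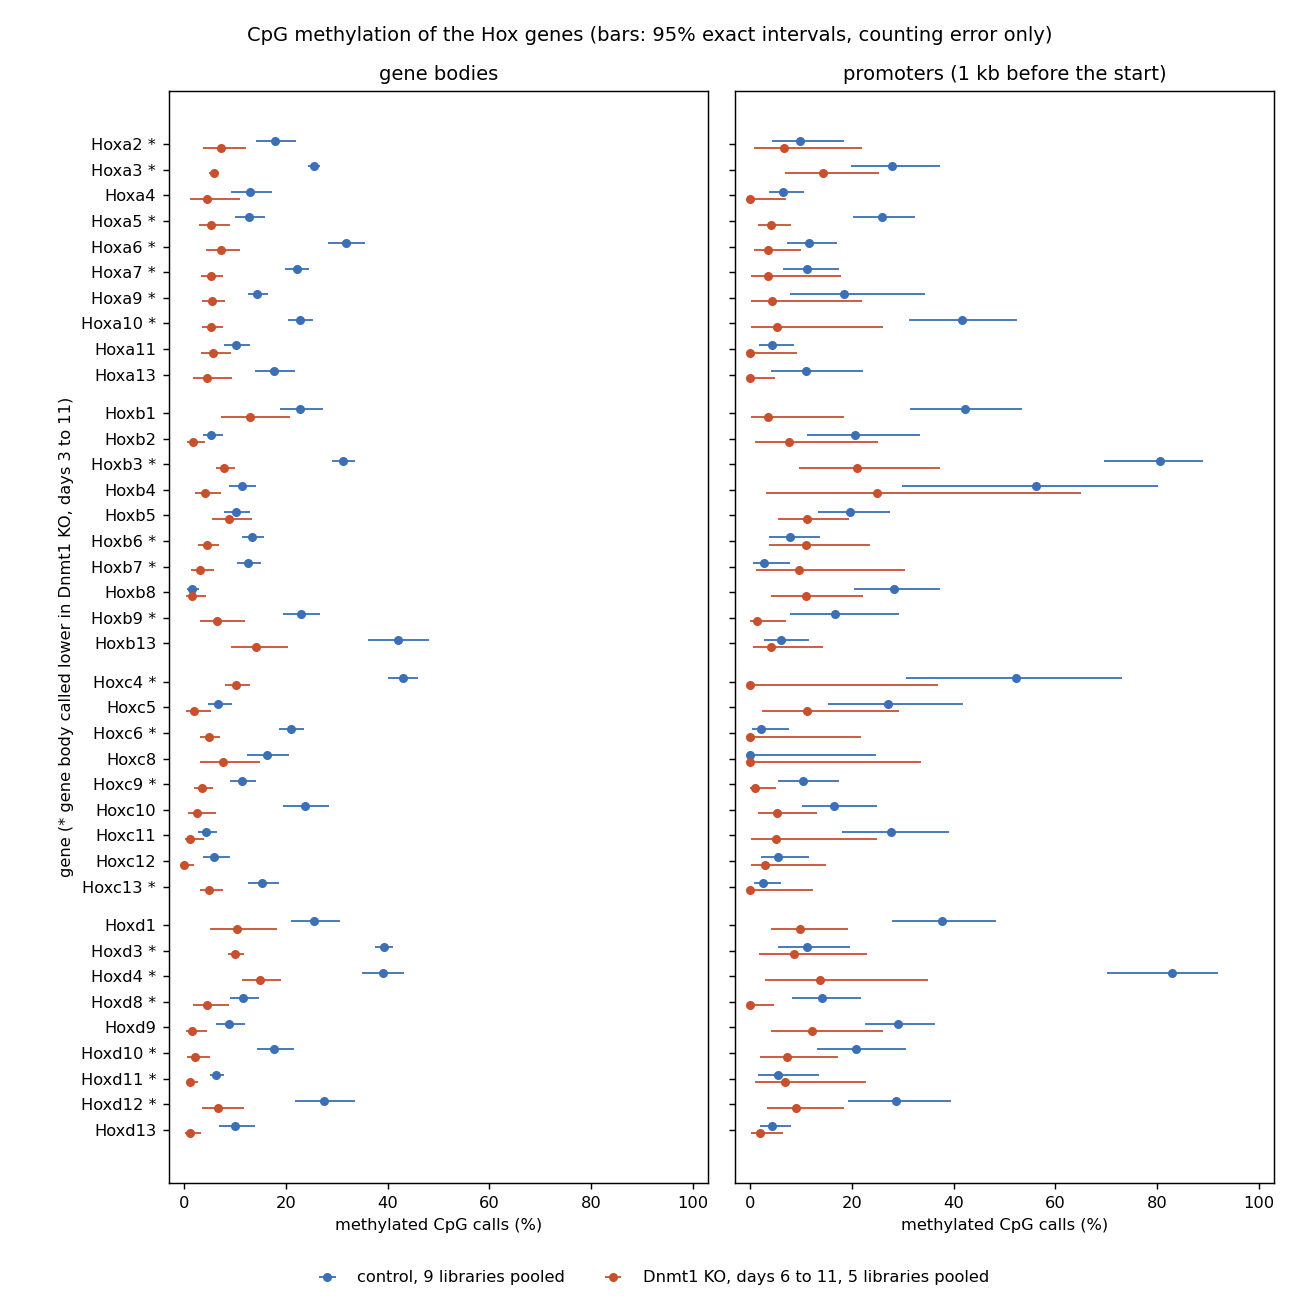
Pooled percent of methylated calls (x axis) in the gene body (left) and promoter (right) of each of the 38 Hox genes, 1 row per gene by cluster and in paralogue order, for control (blue) and Dnmt1 KO at days 6 to 11 (red), with bars for the 95% Clopper-Pearson intervals and a star for bodies called lower. Among bodies, Hoxc4, Hoxb13, Hoxd3 and Hoxd4 stand highest in control at 39.0% to 43.0% and the points of Hoxb8 coincide. Among promoters, Hoxb3 and Hoxd4 stand highest at 80.6% and 83.0%.

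Promoters of Hox genes had too few calls for the filter of 5 calls in every library, which 670 promoters of the genome and 0 of the 38 Hox promoters passed (25.4% of the 670 were called lower). Without that filter 21778 promoters were fitted, 30% of them were called lower and 0.0138% higher, and of the 38 Hox promoters 7 were called lower and 0 higher. Taken as 1 kb on either side of the start, 12 Hox promoters passed the filter and 0 of them were called by the quasi-binomial model (1 at an unadjusted p under 0.05), beside 37.1% of 5854 promoters. The 7 calls thus rest on promoters with few calls in some libraries. Hoxb3 had the largest called difference, from 80.6% of 72 control calls to 21.1% of 38 calls at days 6 to 11 (-55.8 points over days 3 to 11, adjusted p = 0.00098). Hoxd4, whose promoter lies within the Hoxd3 model, went from 83.0% of 53 calls to 13.6% of 22 (-50.7 points, adjusted p = 0.0189), and Hoxa10 from 41.6% of 89 calls to 5.26% of 19 (-38.8 points, adjusted p = 0.0239). These 3 were methylated promoters in control. Their pooled 95% intervals at days 6 to 11 ended below those of control, but these intervals cover counting error only. By library the groups overlapped in all 3. The lowest control library was at 37.5% in Hoxb3, 0% in Hoxd4 and 12.5% in Hoxa10. The highest Dnmt1 KO library of days 3 to 11 was at 45.5%, 54.5% and 22.2%. Hoxb1, the first gene of its cluster and active in the hindbrain, went from 42.2% to 3.57%, Hoxd1 from 37.6% to 9.86%, Hoxd12 from 28.6% to 8.96% and Hoxa5 from 25.9% to 4% (adjusted p = 0.0382, 0.0161, 0.0328 and 0.0141).

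In all, 16 of the 38 Hox promoters stood at 20% or more in control, 4 of them at 50% or more, and 12 stood below 10%. The 9 of these 16 that were not called included Hoxb4 and Hoxc4, at 56.2% and 52.2% on only 16 and 23 calls. The remaining 7 were Hoxd9 at 29.1%, Hoxb8 at 28.3%, Hoxa3 at 27.9%, Hoxc11 at 27.6%, Hoxc5 at 27.1%, Hoxd10 at 20.9% and Hoxb2 at 20.7%. Hoxb8 and Hoxc11 were thus among the least methylated bodies and had partly methylated promoters.

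Of the promoters under 20%, the best covered in each cluster were Hoxa4 (6.49% of 231 calls) and Hoxa6 (11.5% of 183), Hoxb5 (19.7% of 132) and Hoxb13 (6.06% of 132), Hoxc13 (2.42% of 165) and Hoxc9 (10.4% of 115), and Hoxd13 (4.27% of 211) and Hoxd8 (14.04% of 114). Hoxb13 combined a low promoter with the most methylated body of HoxB. In Dnmt1 KO at days 6 to 11, Hoxa4 had 0 methylated of 51 calls, Hoxc13 0 of 28 and Hoxd8 0 of 77, which allow levels of up to 5.88%, 10.7% and 3.90%.

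At day 1, when autosomes as a whole were at 69.9% and 70.2% in Dnmt1 KO, none of the 27 Hox bodies tested was called (0 by the quasi-binomial model, 0 by limma, and 0 at an unadjusted p under 0.05), beside 8.35% of all genes called lower and 0.0799% called higher. At an unadjusted p under 0.05 stood 4053 of the 16279 genes. The share of all genes called lower fell to 1.37% without control day 1 replicate 1. These shares were not matched for control level, whose median was 71.8% over all genes tested and 15.4% over the Hox bodies tested. Among 54 tested homeobox genes outside the clusters, with a control median of 20.9%, 2 were called lower at day 1 and 0 higher. Of the 27 Hox bodies, 17 were lower and 10 higher. The differences ran from -19.5 points in Hoxd12 to 15.4 points in Hoxc13, on few calls per library (from 11 in the first and 18 in the second). Without control day 1 replicate 1, Hoxc13 differed by -0.97 points.

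Genes that act with or on the Hox clusters had higher median levels in their bodies in control, and their counts stand beside 99.1% of all genes called lower. The 9 TALE homeodomain cofactors (Pbx, Meis and Pknox genes) had a control median of 70.96%, and all 9 were called lower, with a median difference of -43.9 points. Of 23 regulators (Polycomb, Trithorax and Cdx genes), 22 were tested and 22 called lower, with a control median of 52.4% and a median difference of -36.5 points. Among 56 other homeobox genes, 54 were tested and 44 called lower, with a control median of 20.9% and a median difference of -13.7 points. The 27 Hox genes tested, with a control median of 15.4% over all tested and a median difference of -11.9 points, were nearest to these other homeobox genes, while all genes stood at 71.8% and -44.9 points. At their promoters, 0 of 9 cofactors, 4 of 23 regulators and 7 of 56 other homeobox genes were called lower without the filter, beside the 7 of 38 Hox promoters and 30% of all promoters.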

How the data were processed

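By the study's methods, reads were trimmed with Trim Galore, aligned in paired-end mode with Bismark (0.12.3 in the submitters' processing notes) to NCBIM37 and deduplicated, and CpG calls were extracted. The authors deposited for each covered cytosine and strand the count of methylated and the count of unmethylated calls, without normalization, and the percent methylated. The deposited percent was checked to equal the share of the counts, and only counts were used. Libraries held 7190722 to 11158414 calls, and the 0.101% to 0.120% of listed cytosines outside CpGs were left out. Groups, days and replicate numbers came from the labels. Nothing in the labels says that replicates were separate cultures beyond a series note of biological replicates, so p-values measure the spread between these libraries.

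The member genes and the other gene lists were chosen with earlier results of these data known. Calls of both strands were summed over clusters, flanks of 50 kb, promoters (1 kb upstream of the outermost start), gene bodies and windows of 50 CpGs. Region values were compared by a two-sided exact permutation test of genotype within days (2592 arrangements, smallest p 0.00077, statistic the difference of the genotypes averaged over days) with Benjamini-Hochberg adjustment over 21 tests. Bodies, promoters and windows were fitted over the whole genome in R 4.3.3 with a quasi-binomial score test stratified by day, with the dispersion moderated by limma 3.58.1. The spread came from groups with 2 replicates, so the lone libraries of day 6 were assumed to vary like them. Features needed at least 10 calls in every library (promoters 5) and were called at an adjusted p under 0.05. The expected level of a cluster used the other autosomal CpGs with the same number of CpGs within 250 bp in the same library. Pooled values carry 95% Clopper-Pearson intervals, and a count of 0 was given a limit of 3 calls. Scripts were tested on simulated data.

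Named with values were, in each cluster, the 3 bodies with the highest and the 2 with the lowest control level, members not called, promoters at 20% or more, the 2 best covered promoters below that, and the longest run of windows under 10%. Other members named were chosen after their values were seen. Alternatives covered the filter on calls, flank size, gene and cluster limits, CpG weights, density radius, days, the tool (limma on percent), the replicate number and each library left out in turn. Sequences were read from NCBIM37.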

Additional observations from a re-analysis of the deposited data

How the results depend on the processing

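Of 682 values recomputed under other settings for 29 results, 661 kept their direction and their side of the threshold or stayed within the limits set for values without a test and 21 did not. Of these 21, 7 changed sign, all in differences that were not called. The HoxD share of calls (-1.64 per 1000000) ran from -5.06 to 1.78 with a library left out and was 0.0994 without day 1, and the mitochondrial background ran from -0.0319 to 0.0030 points, positive without either library of day 6. With a library left out, the body of Hoxb8 at days 3 to 11 ran from -0.29 to 1.04 points, and 14 uncalled bodies changed sign at day 1. Their ranges in points were -6.78 to 26.66 (Hoxa11), -2.90 to 0.33 (Hoxa3), -10.93 to 1.08 (Hoxa5), -15.8 to 7.63 (Hoxa6), -1.53 to 6.18 (Hoxb2), -5.13 to 0.52 (Hoxb6), -1.06 to 0.095 (Hoxb8), -7.24 to 7.43 (Hoxb9), -3.82 to 1.49 (Hoxc11), -0.97 to 19.66 (Hoxc13), -10.98 to 17.54 (Hoxc4), -7.31 to 4.05 (Hoxd11), -26.80 to 8.88 (Hoxd4) and -19.5 to 23.96 (Hoxd8). The HoxD ratio to the expected level ran from -0.40 to -0.25 with a library left out, and its adjusted p was 0.056 without control day 9 replicate 2 (-0.32). The HoxB share of calls ran from -20.4 to -14.6 per 1000000 calls and lost its call without control day 9 replicate 2 (-14.6) and without day 1 (-16.3). With all libraries and the main limits, Dnmt1 KO minus control over the 5 days was -10.1 points in pooled promoters and -12.5 in pooled bodies. It was -23.6 in sequence between the genes and -8.80 in anterior minus posterior bodies. Without day 1, sequence between the genes differed by -29.2 points and pooled bodies by -15.1. With a library left out the former ran from -24.1 to -21.3, lowest in size without either library of day 6. With bodies cut to coding limits and promoters taken 1 kb on either side of the start, promoters differed by -5.97 points, bodies by -9.54 and anterior minus posterior bodies by -5.05, 4 of 6 bodies tested were called, and 0 of 12 promoters (2173 of 5854 in the genome). Without a minimum of calls, 7 of 38 promoters and 125 of 232 windows were called, and with 20 calls in every library 0 windows could be tested. HoxB from Hoxb9 to Hoxb1, added after the data were seen, gave -13.7 points, 22.4 points against its flanks and -0.30 for the ratio. The causes of these changes were not tested. Deviations of same-numbered libraries correlated at -0.0039 to 0.0015 over windows. A correlation over windows cannot show a shift common to a whole library, so pairing by replicate number is not excluded. The 21 of 27 Hox bodies called became 15 of 27 by limma on percentages (16026 of 16279 genes), 15 of 27 at days 9 and 11 alone (15894 of 16279), 14 of 27 with a difference of at least 10 points (16039 of 16279), 27 of 38 without a minimum of calls (19932 of 21972) and 15 of 17 with 20 calls in every library (14414 of 14465). With the replicate number as a block 22 Hox bodies were called (16149 of 16279 genes), and no region changed its call. Hoxb4 and Hoxc5 gained a call in that fit and Hoxd12 lost its call, so these bodies did not turn on single libraries alone.

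Depth sets a limit. With 588 to 1823 calls per cluster and library, whole clusters were read well, but 11 of 38 bodies and all 38 promoters fell under the filter. A body that was not called was not shown to be unchanged, in particular among those below 10% in control.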

Other observations

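The spans also held 27 annotated transcripts that are not listed Hox genes, most of them noncoding, and several of them overlap listed genes and share their calls. They were read as pooled levels, without a test. Gm16258, antisense to the direction of the HoxC genes between Hoxc12 and Hoxc11, was at 78.6% of 229 calls in control (95% Clopper-Pearson interval 72.7% to 83.7%), 72.2% in Dnmt1 KO at day 1, 31.2% at day 3 and 13.7% of 102 calls at days 6 to 11. It lies between the low bodies of Hoxc12 and Hoxc11, at 5.92% and 4.24%. In HoxD, 6720416L17Rik, between Hoxd3 and Hoxd1, was at 48.1% of 788 calls in control and 10.3% of 464 at days 6 to 11. In HoxB, Gm53, between Hoxb13 and Hoxb9, was at 38.03% of 1249 calls and 9.85% of 609.

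Antisense transcripts over the genes themselves varied in control. Gm11536, on the minus strand within Hoxb3, was at 47.8% of 230 calls in control and 14.8% of 176 at days 6 to 11. Opposite to Hoxa3, 5730596B20Rik was at 34.5% of 264 and 5.73% of 157. Hoxa11as was at 7.59% of 870 calls in control and 5.25% of 324 at days 6 to 11, near the body of Hoxa11 that it overlaps, and Hoxb3os, over Hoxb2 and the end of Hoxb3, was at 17.7% of 909 and 3.26% of 522. In HoxA, 2700086A05Rik, which runs opposite to Hoxa3 over much of its model, was at 27.8% of 3750 calls and 6.31% of 1744. Other models, read on few calls, lie between listed genes and on their strand. Gm14396, between Hoxd10 and Hoxd9, was at 30.8% of 221 calls in control and 22.7% of 44 at days 6 to 11. Its Dnmt1 KO libraries of days 3 to 11 ran from 0% to 71.4% (median 8.33%). Gm11539, between Hoxb13 and Hoxb9, was at 79.5% of 73 calls in control and 60% of 20 at days 6 to 11. In Dnmt1 KO it was at 40% of 20 calls at day 1 and 0 of 9 at day 3, so neither is shown to have kept its level. The short processed models of the Mir10 and Mir196 genes had at most 25 control calls each and were not read.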
